A study of Mus musculus with 12 samples.

Results

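The 10 genes described here encode proteins of the extracellular matrix and of wound repair: *Thbs1*, *Tgm2*, *Tnfaip6*, *Fn1*, *Vcan*, *Cd44*, *Plau*, *Plaur*, *Serpinb2* and *Sdc4*. They are 10 of the 53379 genes in the count table, found by matching symbols to Ensembl identifiers in GENCODE M21, and all 10 were among the 12386 genes with enough counts to be tested. The group was chosen by the rises of *Thbs1*, *Tgm2* and *Tnfaip6* in these counts, so the values of these 3 genes are given as a description with no test, and the other 7 genes are tested. RNA was sequenced from bone marrow-derived macrophages (BMDMs), cells grown from mouse bone marrow for 1 week in medium conditioned by L929 cells, a fibroblast line that secretes the macrophage growth factor CSF-1. The marrow came from 4 C57Bl/6J mice, and the methods of the study give its marrow donors as males of 8 to 20 weeks. Each mouse gave an untreated culture, a culture kept for 1 h in fenoterol (1 μM) and another kept in the same dose for 4 h, which makes 3 groups of 4 libraries. Fenoterol is an agonist of the beta2-adrenergic receptor (B2AR). All cells stayed in the same conditioned medium, no vehicle control or untreated 4 h culture is named, and the untreated libraries serve both time points.

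The extracellular matrix is the network of proteins and glycans around cells. In wound repair it is first laid down as a provisional matrix of fibrin, fibronectin, hyaluronan and versican, then cross-linked, and later cleared by proteases such as plasmin. Macrophages take part at each step, as a source of matricellular proteins, proteases and growth factors and as cells that bind the matrix through receptors such as CD44 and the syndecans. B2AR couples to adenylyl cyclase, and the cAMP it makes activates protein kinase A and the transcription factor CREB.

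The libraries held 14580533 to 24153284 counts, and no library was left out. Of 10 macrophage markers, all 10 were tested and their summed level was 38321 to 47188 CPM, which are counts scaled to library size, across the 12 libraries. Against untreated, 1 of the 10 was higher and 1 lower at 1 h, where 10.0% of all tested genes were higher and 10.1% lower. At 4 h 3 were higher and 5 lower, where the shares of all genes were 19.7% and 20.4%, and *Cd14* (log2 fold change 2.52), *Mrc1* (-0.40) and *Mertk* (-1.51) were among these 8 markers. The part of these changes in the results below was not tested. The lymphocyte markers reached at most 0.319 CPM and the dendritic cell markers at most 1.97 CPM in sum. The 10 neutrophil and granulocyte precursor markers, of which 7 were tested, summed to 30.5 to 62.8 CPM across the 12 libraries. In bulk RNA, a change in the number of cells of a type and a change in RNA per cell cannot be told apart.

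Per exon length, as RPKM, which scales counts by library size and exon bases, the 10 genes spanned a wide range in untreated BMDMs. *Sdc4* was the highest at 97.9 ± 5.73 RPKM (SD, n = 4), followed by *Cd44* at 47.9 ± 4.65, *Plau* at 24.5 ± 3.68, *Thbs1* at 15.2 ± 2.84, *Tgm2* at 14.5 ± 2.24, *Plaur* at 9.75 ± 0.94 and *Fn1* at 3.50 ± 1.39 RPKM. *Serpinb2*, *Vcan* and *Tnfaip6* lay at or below 0.225 RPKM in every untreated library. The untreated ranges of *Thbs1* and *Tgm2* overlapped, as did those of *Serpinb2* and *Vcan*, and the other neighbours in this order did not overlap, except that 1 untreated library had no *Serpinb2* count and so lay within the range of *Tnfaip6*. After 4 h of fenoterol the order was *Thbs1* at 1898 ± 163, *Tgm2* at 340 ± 15.3, *Cd44* at 84.6 ± 5.73, *Sdc4* at 71.4 ± 4.39, *Plaur* at 52.5 ± 5.25, *Plau* at 7.55 ± 1.83, *Fn1* at 3.13 ± 0.89 and *Vcan* at 1.55 ± 0.44 RPKM. *Serpinb2* and *Tnfaip6* then lay at or below 0.633 RPKM and overlapped. In the 1 h libraries *Plaur* and *Cd44* overlapped, with 77.7 ± 4.98 and 73.1 ± 5.93 RPKM, as did *Serpinb2* and *Vcan*, and *Tnfaip6* and *Fn1* overlapped at 6.17 ± 2.08 and 3.70 ± 0.84 RPKM.

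**Figure D1:**
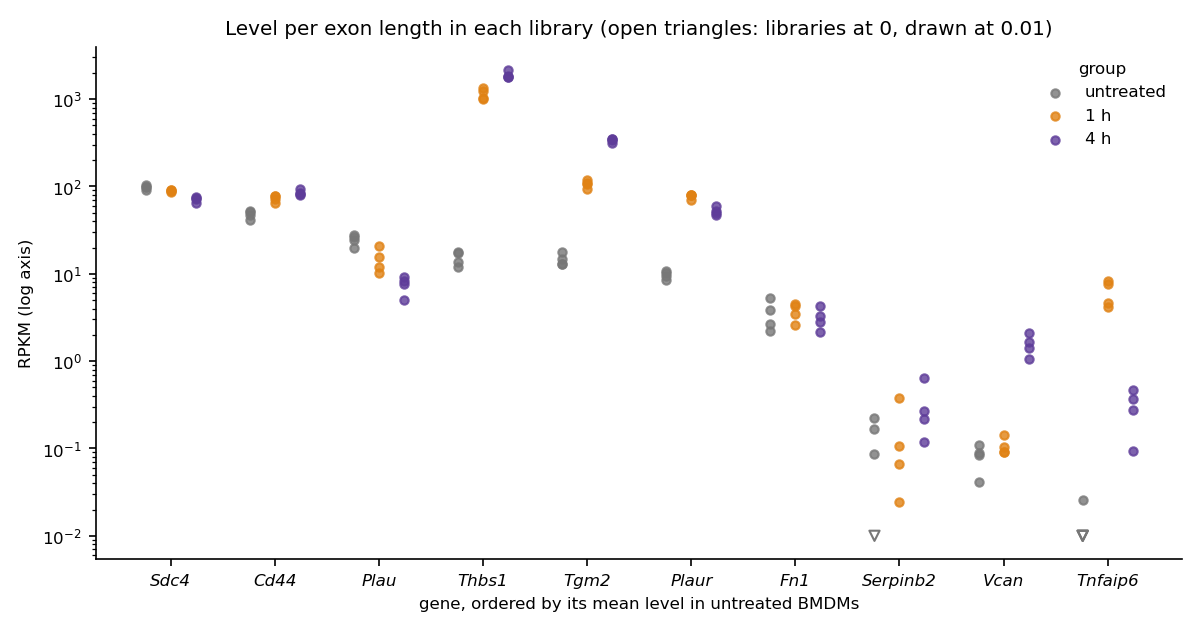
Level of each gene per exon length (RPKM, log axis) in each of the 12 libraries, with untreated in grey, 1 h in orange and 4 h in purple. *Thbs1* passes from a place in the middle of the order, 15.2 RPKM in untreated BMDMs, to the top at 1898 RPKM after 4 h, and *Sdc4* moves from the top of the untreated order to place 4.

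*Thbs1* encodes thrombospondin-1, a secreted matricellular glycoprotein that binds CD36 and CD47 and can activate latent TGF-beta. The gene lies on the plus strand of chr2:118111876-118127133 (GRCm38), with 22 merged exons of 6073 bases in all. Its normalized counts, which are counts scaled to a common effective library size, were 2077, 2097, 1631 and 1413 in the untreated libraries of mice 1 to 4. After 1 h they were 149298, 160272, 119221 and 124046, and after 4 h they were 219740, 254848, 214559 and 214812. Every 4 h library was above every 1 h library, and every 1 h library was far above every untreated one. The fitted log2 fold change was 6.26 ± 0.16 (SE) at 1 h, a 76.6-fold difference, and 6.97 ± 0.16 at 4 h, a 125-fold difference, and the 4 h libraries were 1.64-fold above the 1 h libraries. Within single mice the log2 change lay between 6.17 and 6.45 at 1 h and between 6.72 and 7.25 at 4 h, with the widest 4 h change in mouse 4, which had the lowest untreated value. *Thbs1* took 0.00737 to 0.0107% of the counts of an untreated library, 0.592 to 0.779% at 1 h and 1.13 to 1.32% at 4 h. It ranked between 1929 and 2880 among all genes by count in untreated BMDMs, 5 or 6 after 1 h and 4 in each of the 4 h libraries.

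*Thbs1* is also abundant in platelets, so the platelet and megakaryocyte markers were read beside it. Of 8 such markers *Gp6* had 0 counts in all 12 libraries, and *Gp9*, *Gp1bb* and *Gp1ba* had 1, 2 and 12 counts over all 12. Their summed level was 355 to 555 CPM in untreated BMDMs, 472 to 628 CPM at 1 h and 589 to 704 CPM at 4 h, and *Pf4*, a chemokine that macrophages also express, held 129128 counts of it. Of the 3 tested markers *Pf4* and *Ppbp* were higher at 4 h, as were 19.7% of all genes, with log2 fold changes of 0.47 (adjusted p = 0.00676) and 0.90 (adjusted p = 0.00298). An antisense lincRNA, *Gm29233*, overlaps 3.42% of the exon bases of *Thbs1* and had 22 counts over all libraries, against 1500592 for *Thbs1*.

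**Figure D2:**
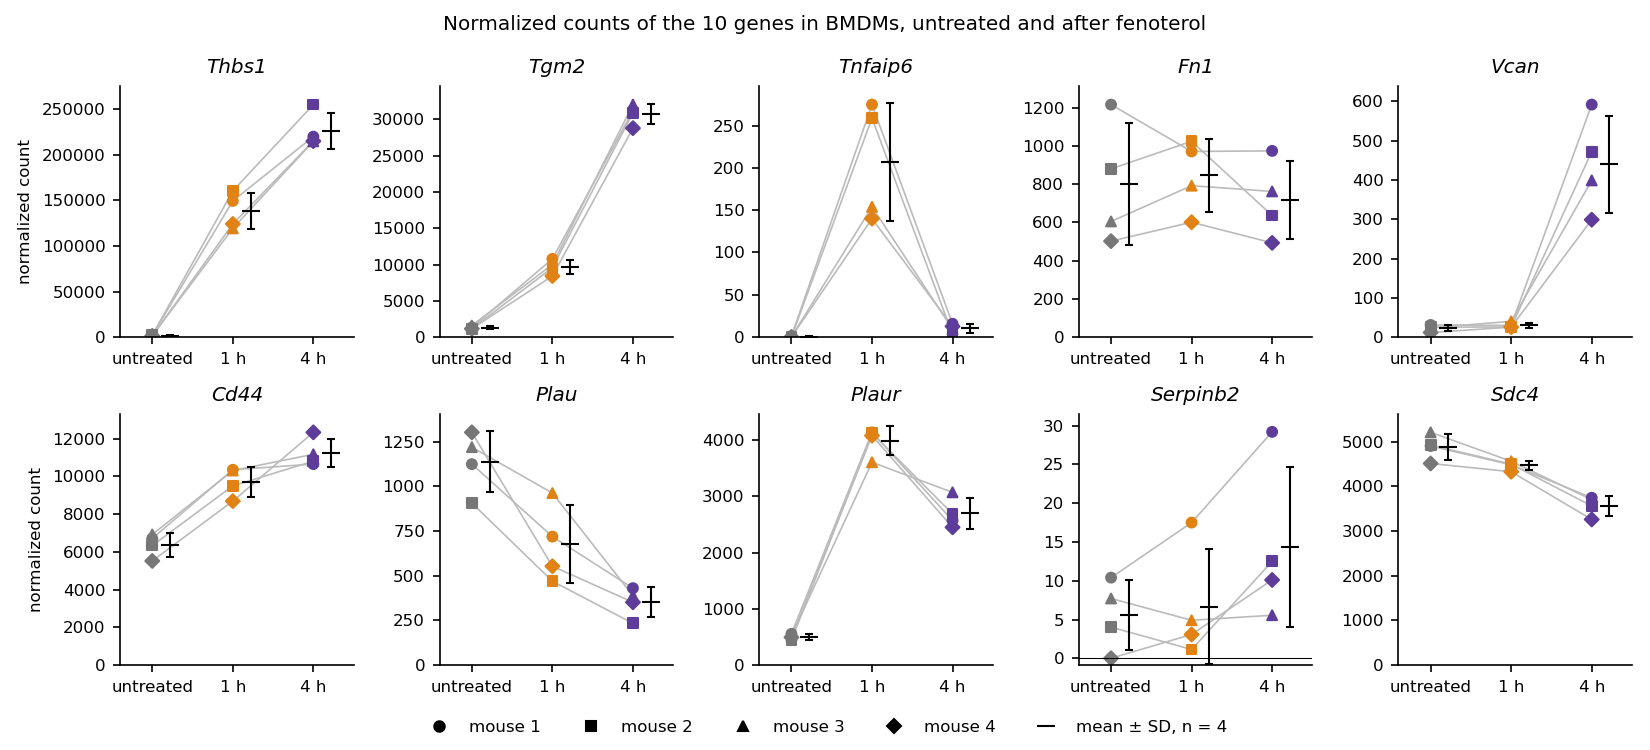
Normalized counts of the 10 genes (linear axes, one per gene) in untreated BMDMs and after 1 h and 4 h of fenoterol, with one symbol per mouse, grey lines joining libraries of one mouse and black bars for mean ± SD (n = 4). *Thbs1*, *Tgm2* and *Vcan* are highest at 4 h, *Tnfaip6* and *Plaur* are highest at 1 h, *Plau* and *Sdc4* are lowest at 4 h, and the 3 groups of *Fn1* overlap.

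*Tgm2* encodes tissue transglutaminase, an enzyme that cross-links proteins, fibronectin among them, and that is also found at the surface of macrophages. It lies on the minus strand of chr2:158116402-158146436, with 14 merged exons of 4608 bases. The untreated libraries of mice 1 to 4 had 1324, 1176, 1597 and 1162 normalized counts. The 1 h libraries had 10773, 9556, 9995 and 8414, and the 4 h libraries 31168, 30871, 32008 and 28763. The groups did not overlap, and the mice lay close together, with a coefficient of variation of 4.49% at 4 h. The log2 fold change was 2.88 ± 0.10 at 1 h, or 7.36-fold, and 4.54 ± 0.11 at 4 h, or 23.3-fold. In contrast to *Thbs1*, whose 4 h level was 1.64-fold its 1 h level, *Tgm2* was 3.17-fold higher at 4 h than at 1 h. Genes on the opposite strand, *Rprd1b* and *Gm20412*, overlap 21.8% of the *Tgm2* exon bases, and whether the counting used strand is not given in the sources used here. Their own counts over 12 libraries were 8756 and 7, against 173594 for *Tgm2*.

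*Tnfaip6* encodes TSG-6, a secreted protein that binds hyaluronan and helps to load hyaluronan with the heavy chains of inter-alpha-inhibitor. It lies on the plus strand of chr2:52038009-52056686 and has 1710 exon bases that no other gene overlaps. In untreated BMDMs it was barely seen, with 1, 0, 0 and 0 counts in mice 1 to 4, and a count of 0 allows up to 3 counts in a library. After 1 h it had 268, 230, 157 and 137 counts, and after 4 h 15, 3, 10 and 16 counts. All 1 h libraries were above all others, and the 4 h libraries lay between them and the untreated ones. Summed over libraries, 792 counts at 1 h stood against 1 untreated count, a ratio of 794 after scaling for library size. The 44 counts at 4 h gave a ratio of 39.7. Both ratios rest on 1 untreated count and are imprecise, and they describe a gene whose rise chose the group.

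The promoters of *Tnfaip6* and *Plaur*, which had their highest level at 1 h, and of *Vcan*, which was high at 4 h alone, are shown because CREB and AP-1, transcription factors downstream of many cell-surface receptors, bind short DNA motifs that can be searched for. RefSeq windows of 250 bases before to 50 after a start site (GRCm38.p6) were at hand for 6 of the 10 genes, namely *Tnfaip6*, *Vcan*, *Cd44*, *Plaur*, *Serpinb2* and *Sdc4*, as 7 windows, and not for *Thbs1*, *Tgm2*, *Fn1* and *Plau*. Each window was searched on both strands for the cAMP response element TGACGTCA, its shorter form TGACG, which is part of the full element, and the AP-1 site TGACTCA, which reads TGAGTCA on the other strand. The AP-1 letters stood in 2 of the 7 windows, those of *Tnfaip6* and *Plaur*, and in 5.2% of all 32851 windows. The match began 142 bases before the RefSeq start site in *Tnfaip6* and 69 bases before it in *Plaur*. None of the 7 windows held the full element or the shorter form, which occur in 1.79% and 20.8% of all windows. The sequences below run 5′ to 3′ along the gene, in lower case with the AP-1 letters in capitals, and end before the first annotated transcribed base.
Tnfaip6, chr2:52037863-52038008, plus strand: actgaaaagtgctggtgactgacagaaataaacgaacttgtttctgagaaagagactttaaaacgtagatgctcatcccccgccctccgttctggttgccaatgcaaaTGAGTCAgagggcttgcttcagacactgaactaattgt
Plaur, chr7:24462233-24462482, plus strand: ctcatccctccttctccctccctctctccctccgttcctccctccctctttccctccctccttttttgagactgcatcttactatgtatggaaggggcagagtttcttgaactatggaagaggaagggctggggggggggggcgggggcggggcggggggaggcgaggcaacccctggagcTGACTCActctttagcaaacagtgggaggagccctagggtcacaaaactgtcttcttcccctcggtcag
Vcan, chr13:89742513-89742762, minus strand: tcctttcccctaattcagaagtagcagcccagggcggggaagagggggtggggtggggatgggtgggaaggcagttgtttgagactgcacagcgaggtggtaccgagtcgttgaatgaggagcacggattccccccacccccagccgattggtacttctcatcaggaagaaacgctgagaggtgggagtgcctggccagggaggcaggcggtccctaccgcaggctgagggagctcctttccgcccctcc

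Of the 7 genes tested, *Cd44* and *Plaur* were higher and *Plau* was lower after 1 h of fenoterol. These are 28.6% and 14.3% of 7 genes, while 10.0% of all 12386 tested genes were higher and 10.1% lower at 1 h. After 4 h *Vcan*, *Cd44* and *Plaur* were higher and *Plau* and *Sdc4* lower, which is 42.9% and 28.6% of 7 beside 19.7% and 20.4% of all genes. Between the time points *Vcan* and *Cd44* were higher at 4 h and *Plau*, *Plaur* and *Sdc4* lower, which is 28.6% and 42.9% of 7 beside 18.7% and 19.8% of all genes. The median log2 fold change of the 7 genes was 0.20 at 1 h, 0.82 at 4 h and -0.24 from 1 h to 4 h. The median of all tested genes was -0.0049, 0.0042 and 0.0074. The 1 h median is the value of *Serpinb2*, a gene with few counts that did not pass (SE 0.84, adjusted p = 0.916 in edgeR's test). *Fn1* passed in no comparison, and *Serpinb2* in none without the mouse as a block. With that block, *Sdc4* was also lower at 1 h and *Serpinb2* also higher at 4 h. Scaling by library size alone called 949 of all genes higher and 1969 lower at 1 h, in place of 1242 and 1251, and 3503 higher and 1830 lower between the time points, in place of 2320 and 2453. Both comparisons with untreated BMDMs share the untreated libraries.

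**Figure D3:**
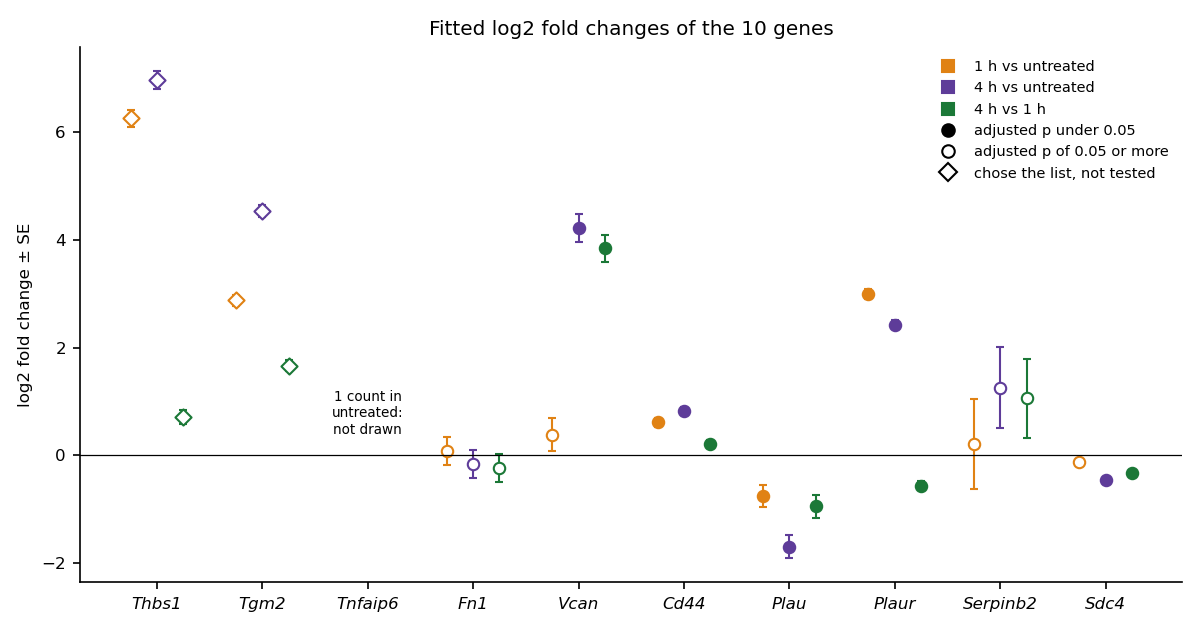
Fitted log2 fold change ± SE of each gene in the 3 comparisons (filled circles, adjusted p under 0.05 in edgeR's test across all genes; open circles, not past it; diamonds, the genes whose rise chose the group, not tested). *Plau* is the only one of the 7 tested genes below 0 and past the threshold in all 3 comparisons, and *Tnfaip6* is not drawn because its untreated libraries held 1 count.

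*Plau*, *Plaur* and *Serpinb2* belong to plasminogen activation at the cell surface. *Plau* encodes urokinase (uPA), the protease that turns plasminogen into plasmin, *Plaur* its receptor uPAR, and *Serpinb2* the urokinase inhibitor PAI-2. Against untreated BMDMs the protease was lower and its receptor higher at both times, and from 1 h to 4 h both fell.

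*Plaur* (chr7:24462484-24475968, plus strand) had 554, 439, 518 and 491 normalized counts in the untreated libraries of mice 1 to 4. It had 4140, 4126, 3607 and 4082 after 1 h, and 2571, 2689, 3072 and 2450 after 4 h. The 3 groups did not overlap, and the 4 h libraries lay between the other groups. The gene rose by 2.99 ± 0.09 on the log2 scale at 1 h (7.95-fold, adjusted p = 5.57e-12) and was still 2.43 ± 0.09 above untreated at 4 h (5.37-fold, adjusted p = 5.13e-11). From 1 h to 4 h it fell by 0.57 ± 0.08 (adjusted p = 6.07e-05), in 4 of 4 mice and least in mouse 3. Among all tested genes it was 70th by log2 fold change at 1 h, next to *Tgm2* at 80th, and 123rd at 4 h.

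*Plau* (chr14:20836660-20843385, plus strand) had 1125, 907, 1220 and 1303 normalized counts in the untreated libraries. The 1 h libraries had 719, 469, 963 and 553, and the 4 h libraries 430, 233, 388 and 351. The 1 h value of mouse 3 lay within the untreated range, and the 4 h group lay below both others. *Plau* fell by 0.75 ± 0.20 on the log2 scale at 1 h (adjusted p = 0.0168). At 4 h it was 3.25-fold lower than untreated (log2 fold change -1.70 ± 0.21, adjusted p = 1.50e-05). The difference between the time points was a log2 fold change of -0.95 ± 0.21 (adjusted p = 0.00277), and all 4 mice showed each of these 3 directions. The 1 h call was lost, with the same direction, when mouse 4 was left out of the 1 h group (log2 fold change -0.67, adjusted p = 0.0503) or of the untreated group (-0.68, adjusted p = 0.0505).

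*Serpinb2* (chr1:107511423-107535478, plus strand) was near the limit of detection. It had 12, 3, 8 and 0 counts in the untreated libraries, 17, 1, 5 and 3 at 1 h and 28, 12, 6 and 13 at 4 h, and all 3 groups overlapped. The log2 fold change was 0.20 ± 0.84 at 1 h (adjusted p = 0.916) and 1.26 ± 0.75 at 4 h (adjusted p = 0.205). With the mouse as a block, which removes the difference between mice, the 4 h value was 1.37 and passed (adjusted p = 0.0370). Mouse 1 had the highest value in each group. Of its exon bases 12.4% are shared with *Serpinb10* on the same strand, which had 18 counts over all libraries.

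*Cd44*, *Vcan* and *Sdc4* are the hyaluronan and proteoglycan genes of the group. *Cd44* encodes the main hyaluronan receptor of leukocytes, *Vcan* the large chondroitin sulfate proteoglycan versican, which binds hyaluronan, and *Sdc4* the heparan sulfate proteoglycan syndecan-4 of focal adhesions. Each had its own time course.

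*Cd44* (chr2:102811141-102901665, minus strand) had 6706, 6329, 6920 and 5516 normalized counts in untreated BMDMs, 10352, 9498, 10311 and 8688 at 1 h, and 10653, 10808, 11173 and 12336 at 4 h. Both treated groups were above the untreated one, and the highest 1 h library was just below the lowest 4 h library. The gene rose by 0.61 ± 0.08 on the log2 scale at 1 h (1.52-fold, adjusted p = 4.63e-05), with changes from 0.58 to 0.66 in single mice, and by 0.82 ± 0.08 at 4 h (1.77-fold, adjusted p = 1.07e-06). The step from 1 h to 4 h was 0.21 ± 0.08 (adjusted p = 0.0458), from 0.0415 in mouse 1 to 0.51 in mouse 4. That call was lost when any of 8 libraries was left out, namely mouse 2, 3 or 4 at 1 h, mouse 2, 3 or 4 at 4 h, or untreated mouse 1 or 2 (log2 fold change 0.16 to 0.23, adjusted p = 0.0522 to 0.135).

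*Vcan* (chr13:89655312-89742509, minus strand) was late. Its normalized counts were 31.1, 25.4, 24.1 and 11.8 in untreated BMDMs and 29.8, 25.9, 40.2 and 25.6 at 1 h, which overlapped. After 4 h they were 592, 472, 399 and 299, all above every other library, and the order of the mice was the same as in untreated BMDMs. The log2 fold change was 0.38 ± 0.31 at 1 h (adjusted p = 0.461) and 4.23 ± 0.26 at 4 h (18.7-fold, adjusted p = 1.05e-08). The 4 h libraries were 14.4-fold above the 1 h libraries (log2 fold change 3.84 ± 0.25, adjusted p = 3.11e-08), the seventh largest rise between the time points among all tested genes. The 14462 exon bases overlap no other gene.

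*Sdc4* (chr2:164424247-164443887, minus strand) had the smallest spread of the 10 genes in the untreated and 1 h groups, with coefficients of variation of 5.85% and 2.22%. Its normalized counts were 4904, 4925, 5210 and 4513 in untreated BMDMs, 4483, 4497, 4562 and 4328 at 1 h, and 3744, 3561, 3702 and 3259 at 4 h. The untreated and 1 h groups overlapped, and every 4 h library was lower than those of both other groups. *Sdc4* fell by 0.46 ± 0.06 on the log2 scale at 4 h (1.37-fold lower, adjusted p = 1.32e-05) and by 0.33 ± 0.06 from 1 h to 4 h (adjusted p = 0.000366). At 1 h the log2 fold change was -0.13 ± 0.06 (adjusted p = 0.130), negative in 4 of 4 mice from -0.19 to -0.0603. It passed with the mouse as a block (-0.13, adjusted p = 0.0366) and with scaling by library size alone (-0.20, adjusted p = 0.0131).

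*Fn1*, for fibronectin (chr1:71585520-71653200, minus strand), differed more between mice than between groups. Its normalized counts in mice 1 to 4 were 1216, 880, 605 and 502 untreated, 971, 1024, 792 and 601 at 1 h, and 974, 636, 762 and 493 at 4 h. Mouse 4 was the lowest in each group and the 3 groups overlapped. The log2 fold change was 0.0769 ± 0.26 at 1 h (adjusted p = 0.889) and -0.17 ± 0.26 at 4 h (adjusted p = 0.656), and the sign differed between mice at both times. The coefficient of variation was 39.9% in untreated BMDMs, against 5.85% for *Sdc4*.

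Fibroblasts make much fibronectin, and their markers moved with *Fn1* across the libraries, as did the markers of neutrophils and their precursors. Of 10 fibroblast markers *Lum* had 0 counts, *Pdgfra*, *Dcn* and *Thy1* had 58, 47 and 26 counts over all libraries, and *Col1a1*, *Col1a2*, *Col3a1*, *Pdgfrb*, *Acta2* and *Postn* were tested. The summed level of the 10 markers was 103, 81.3, 70.0 and 34.7 CPM in untreated mice 1 to 4, 92.4, 87.6, 73.5 and 50.4 CPM at 1 h, and 98.7, 49.2, 71.1 and 38.6 CPM at 4 h. The order of the mice was the same for *Fn1* and for the fibroblast markers in the untreated and 4 h groups. At 1 h it differed in the place of mice 1 and 2. The summed level of 10 neutrophil and granulocyte precursor markers was 62.8, 48.5, 46.1 and 30.6 CPM in untreated mice 1 to 4. It was 55.4, 57.3, 48.0 and 32.5 CPM at 1 h, and 52.6, 45.9, 48.2 and 30.5 CPM at 4 h. This sum kept the mouse order of *Fn1* in all 3 groups, so that order was not particular to the fibroblast markers. None of the 6 tested fibroblast markers passed against untreated in edgeR's test at 1 h or 4 h, and 0 had an unadjusted p under 0.05. DESeq2, limma-voom and limma called 0. These fits held no term for the mouse, while the markers differed between mice, and no result with the mouse as a block is given for them. The part of fibroblasts, or of neutrophils and their precursors, in the *Fn1* values was not tested. *Vcan* is also a fibroblast gene, and the part of fibroblasts in its values was not tested either.

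**Figure D4:**
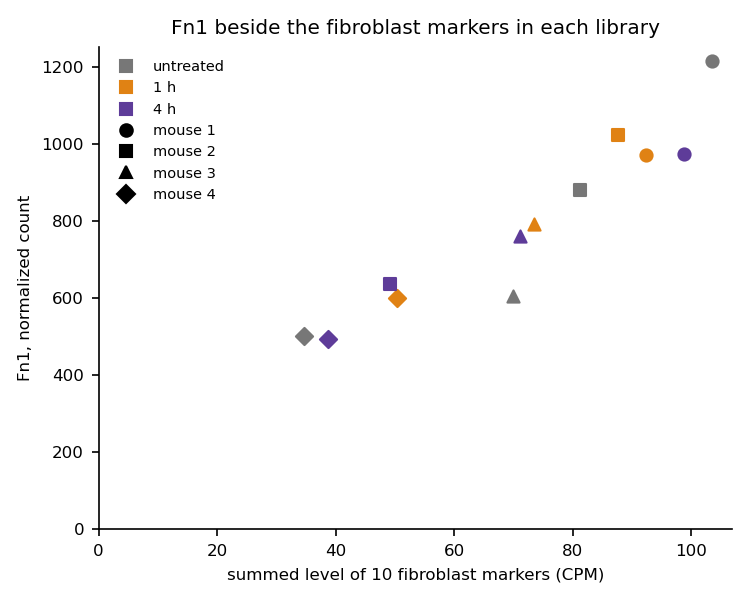
*Fn1* normalized count against the summed level of 10 fibroblast markers (CPM) in the 12 libraries, with colour for the group and symbol for the mouse. Libraries of mouse 4 lie at the lower left and those of mouse 1 at the right, and the colours are mixed along the trend.

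The surrounding pathways were read from 6 lists of 146 other matrix and repair genes, of which 119 were tested. After 1 h 23 of 119 were higher and 0 lower in edgeR's test, or 19.3% and 0% beside 10.0% and 10.1% of all genes. At an unadjusted p under 0.05, 31 were higher and 2 lower, and DESeq2, limma-voom and limma called 26, 22 and 23 higher and 0 lower each. With the mouse as a block 33 were higher and 2 lower, where that fit called 13.3% of all genes higher and 13.7% lower. After 4 h 30 were higher and 13 lower, or 25.2% and 10.9% beside 19.7% and 20.4% of all genes. Between the time points 19 were higher at 4 h and 26 lower, or 16% and 21.8% beside 18.7% and 19.8% of all genes. The median log2 fold change over the 119 was 0.0937 at 1 h and 0.0486 at 4 h.

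Among the other thrombospondins, matricellular proteins and thrombospondin receptors, *Thbs2* and *Thbs3* had 25.9 ± 13.1 and 18.6 ± 12.2 normalized counts in untreated BMDMs. Both passed in no comparison in the fit without the mouse as a block, and *Thbs4* had 0 counts. Of 15 tested genes 1 was higher at 1 h (2 with the mouse as a block, which called 13.3% of all genes higher), or 6.67% beside 10.0% of all genes, and 2 were higher and 1 lower at 4 h (2 and 2 with the block, beside 23.6% and 23.8% of all genes), or 13.3% and 6.67% beside 19.7% and 20.4%. Between the time points 2 were higher and 3 lower (2 and 5 with the block, beside 23.0% and 23.6%), or 13.3% and 20.0% beside 18.7% and 19.8%, and *Lrp1*, a receptor that clears thrombospondin-1, was among the lower (log2 fold change -0.55 ± 0.16, adjusted p = 0.0121). *Cd36*, a scavenger receptor that binds thrombospondin-1, was higher at 1 h by 0.37 ± 0.11 on the log2 scale (adjusted p = 0.0258) and not at 4 h (-0.0928, adjusted p = 0.536). The 1 h call was lost on scaling by library size alone (adjusted p = 0.0660) and without mouse 1 or 3 at 1 h or untreated mouse 2 or 4 (adjusted p = 0.0579 to 0.0896). *Calr*, the chaperone calreticulin, which also binds thrombospondin-1 at the cell surface, was higher by 0.33 ± 0.07 at 4 h. *Cd47* passed in no comparison in the fit without the mouse as a block.

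Among structural matrix proteins 3 of 23 tested genes were higher at 1 h and 5 of 23 at 4 h (7 higher and 2 lower with the mouse as a block), and 0 were lower in the fit without it. These are 13% and 21.7% higher, close to the 10.0% and 19.7% of all genes, and 0% lower, beside 10.1% and 20.4%, and the block fit called 23.6% of all genes higher and 23.8% lower at 4 h. Between the time points 5 were higher and 0 lower, or 21.7% and 0% beside 18.7% and 19.8% of all genes, and with the block 5 and 3, beside 23.0% and 23.6%. At an unadjusted p under 0.05 0 were lower in each of these comparisons, and DESeq2, limma-voom and limma called 0 lower. The 5 genes higher at 4 h were *Nid2*, *Lamc1*, *Emilin2*, *Agrn* and *Col18a1*. *Nid2*, for nidogen-2, which links laminin and collagen IV, went from 118.5 ± 14.9 to 785 ± 98.2 normalized counts at 4 h (log2 fold change 2.72 ± 0.12, adjusted p = 2.40e-10) and did not pass at 1 h (0.19, adjusted p = 0.332). *Lamc1*, for the laminin gamma 1 chain, rose at both times, by 0.70 ± 0.07 and 1.60 ± 0.07, and so did *Emilin2*, an elastic fibre glycoprotein, by 0.63 ± 0.13 and 1.37 ± 0.13. The fibrillar collagen genes *Col1a1*, *Col1a2* and *Col3a1*, which are also fibroblast markers, passed in no comparison in the fit without the block.

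In the list of hyaluronan, proteoglycan and syndecan genes 6 of 21 tested genes were higher and 0 lower at 1 h, and 7 were higher and 3 lower at 4 h. These are 28.6% and 0% at 1 h, beside 10.0% and 10.1% of all genes, and 33.3% and 14.3% at 4 h, beside 19.7% and 20.4%. From 1 h to 4 h 5 were higher and 6 lower, or 23.8% and 28.6% beside 18.7% and 19.8%. With the mouse as a block 11 were higher and 0 lower at 1 h, where that fit called 13.3% of all genes higher and 13.7% lower. At an unadjusted p under 0.05 0 were lower at 1 h, and DESeq2, limma-voom and limma called 0 lower. *Sdc1*, for syndecan-1, rose while *Sdc4* fell. It had 649 ± 102 normalized counts untreated, 1572 ± 329 at 1 h and 3338 ± 649 at 4 h, which are log2 fold changes of 1.27 ± 0.17 (adjusted p = 5.07e-05) and 2.36 ± 0.17 (adjusted p = 4.62e-08). *Cemip2*, reported to degrade hyaluronan at the cell surface, had its highest level at 1 h, 2159 ± 448 against 395 ± 21.6 normalized counts untreated and 652 ± 39.6 at 4 h. *Srgn*, for the granule proteoglycan serglycin, was higher by 1.22 ± 0.08 at 4 h. *Hpse*, for heparanase, and *Stab2*, a hyaluronan scavenger receptor, were lower at 4 h by log2 fold changes of -1.26 ± 0.07 and -1.66 ± 0.29. The hyaluronan synthase genes *Has1*, *Has2* and *Has3* had 0, 16 and 6 counts over all libraries and were not tested.

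Among genes of plasminogen activation and coagulation other than *Plau*, *Plaur* and *Serpinb2*, 3 of 18 tested genes were higher and 0 lower at 1 h (5 higher and 1 lower with the mouse as a block), and 7 were higher and 3 lower at 4 h. These are 16.7% and 0% at 1 h, beside 10.0% and 10.1% of all genes (13.3% and 13.7% with the block), and 38.9% and 16.7% at 4 h, beside 19.7% and 20.4%. From 1 h to 4 h 5 were higher and 4 lower, or 27.8% and 22.2% beside 18.7% and 19.8%. At an unadjusted p under 0.05 0 were lower at 1 h, and DESeq2, limma-voom and limma called 0 lower. *Thbd*, for thrombomodulin, the thrombin receptor that starts the protein C pathway, went from 265 ± 29.1 normalized counts to 2322 ± 219 at 1 h (log2 fold change 3.13 ± 0.11, adjusted p = 2.67e-11) and 515 ± 70.4 at 4 h (0.96 ± 0.11, adjusted p = 4.82e-06). *F5*, for coagulation factor V, was a late gene like *Vcan*, with 51.7 ± 20.0 normalized counts untreated, 73.9 ± 16.9 at 1 h and 1538 ± 395 at 4 h (log2 fold change 4.89 ± 0.26, adjusted p = 1.88e-09). Its 1 h value of 0.50 did not pass (adjusted p = 0.300) but did with the mouse as a block (0.50, adjusted p = 0.0348). *Procr*, the endothelial protein C receptor, was higher by 1.57 ± 0.20 at 4 h. Its 1 h value of 0.63 ± 0.21 (adjusted p = 0.0447) did not pass with limma-voom (adjusted p = 0.0990), with scaling by library size alone (adjusted p = 0.0591) or without any 1 of 8 libraries, namely mouse 1, 2 or 4 at 1 h, mouse 2, 3 or 4 untreated, or mouse 2 or 4 at 4 h (log2 fold change 0.43 to 0.67, adjusted p = 0.0521 to 0.160). *F13a1*, for the transglutaminase factor XIII-A, was lower at 4 h (log2 fold change -1.52 ± 0.34, adjusted p = 0.00239), while *Tgm2* was higher, and its 1 h value of -0.39 (adjusted p = 0.485) passed with the mouse as a block alone (-0.38, adjusted p = 0.0205). *F10*, for factor X, was lower at 4 h (log2 fold change -0.82 ± 0.26, adjusted p = 0.0217), a call lost without mouse 3 or 4 at 4 h or untreated mouse 1 (adjusted p = 0.0609 to 0.0912). *Plat*, for the other plasminogen activator tPA, had 2, 3, 4 and 0 counts in untreated mice 1 to 4, 53, 14, 35 and 35 at 1 h and 9, 7, 10 and 18 at 4 h. It was higher at both times, while *Plau* was lower (log2 fold change 3.85 ± 0.53, adjusted p = 9.12e-05, and 2.06 ± 0.61, adjusted p = 0.0146). The inhibitor gene *Serpine2* passed in no comparison in the fit without the mouse as a block. *Plg* had 0 counts, and *F3*, for tissue factor, had 28 counts over all libraries.

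Some of these are also endothelial genes. Of 8 endothelial markers *Cldn5* had 0 counts, *Tie1*, *Tek*, *Robo4* and *Esam* had 17, 10, 8 and 35 counts over all libraries, and 2 of the 3 tested were higher at 4 h, as were 19.7% of all genes. *Kdr* was higher by 1.22 (adjusted p = 0.00464), and *Cdh5*, with 1 to 32 counts a library, by 2.19 on the log2 scale (adjusted p = 0.000551). The summed level of the 8 markers was 4.94 to 8.11 CPM untreated, 6.31 to 11.8 CPM at 1 h and 9.41 to 15.6 CPM at 4 h. Their part in the rises of *Thbd*, *F5* and *Procr* was not tested.

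Of 19 tested genes of matrix cross-linking and collagen processing other than *Tgm2*, 0 passed in edgeR's test at 1 h, 2 had an unadjusted p under 0.05, DESeq2, limma-voom and limma called 0, and the fit with the mouse as a block called 1 lower, beside 13.7% of all genes. At 1 h 10.0% of all genes were higher and 10.1% lower. At 4 h 2 were higher and 2 lower, or 10.5% each beside 19.7% and 20.4% of all genes, and between the time points 1 was higher and 2 lower, or 5.26% and 10.5% beside 18.7% and 19.8%. With scaling by library size alone 3 were higher and 2 lower between the time points, where 3503 of all 12386 genes were higher and 1830 lower. At 4 h against untreated, *Tgm1*, the transglutaminase of keratinocytes, and *Loxl3*, a lysyl oxidase, were lower with log2 fold changes of -0.69 ± 0.17 and -0.77 ± 0.13. *P4hb* and *Plod3*, which hydroxylate collagen in the endoplasmic reticulum or take part in it, were higher in the same comparison. Their log2 fold changes were 0.20 ± 0.06 (adjusted p = 0.0163) and 0.19 ± 0.07 (adjusted p = 0.0398). The *P4hb* call was lost without mouse 1 at 4 h or untreated mouse 2 (adjusted p = 0.0543 and 0.0546). The *Plod3* call was lost in a fit of the 2 groups alone (adjusted p = 0.0625) and without mouse 1 or 3 at 4 h or untreated mouse 2, 3 or 4 (adjusted p = 0.0574 to 0.130).

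In the list of TGF-beta activation and signalling, the pathway that thrombospondin-1 can switch on outside the cell, 10 of 23 tested genes were higher and 0 lower at 1 h, or 43.5% and 0% beside 10.0% and 10.1% of all genes. At an unadjusted p under 0.05, 11 were higher and 1 lower, and DESeq2, limma-voom and limma called 11, 10 and 10 higher and 0 lower. At 4 h 7 were higher and 4 lower, or 30.4% and 17.4% beside 19.7% and 20.4% of all genes. Between the time points 1 was higher at 4 h and 11 lower, or 4.35% and 47.8% beside 18.7% and 19.8% of all genes, and with the mouse as a block 3 and 12, where that fit called 23.0% and 23.6%. *Tgfb3*, a TGF-beta ligand, went from 34 ± 7.34 normalized counts to 505 ± 90.7 at 1 h (log2 fold change 3.90 ± 0.17, adjusted p = 4.14e-10) and 395 ± 45.7 at 4 h (3.55 ± 0.17, adjusted p = 9.05e-10). *Bambi*, a decoy receptor, rose at 1 h alone, to 630 ± 120 from 97.5 ± 14.3 normalized counts, and was back at 89.6 ± 3.88 at 4 h (log2 fold change 4 h against 1 h -2.81, adjusted p = 2.51e-09). *Skil*, a repressor of SMAD transcription, was higher at both times, by 2.14 ± 0.09 and 0.89 ± 0.09. *Lrrc32*, which holds latent TGF-beta at the cell surface, was higher at 1 h by 0.92 ± 0.21 (adjusted p = 0.00599) and lower at 4 h (log2 fold change -0.78 ± 0.23, adjusted p = 0.0139), and the 4 h call was lost without untreated mouse 1 (adjusted p = 0.0527). *Tgfbr1*, the type I receptor, was lower at 4 h (log2 fold change -0.73 ± 0.09, adjusted p = 8.45e-06).

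**Figure D5:**
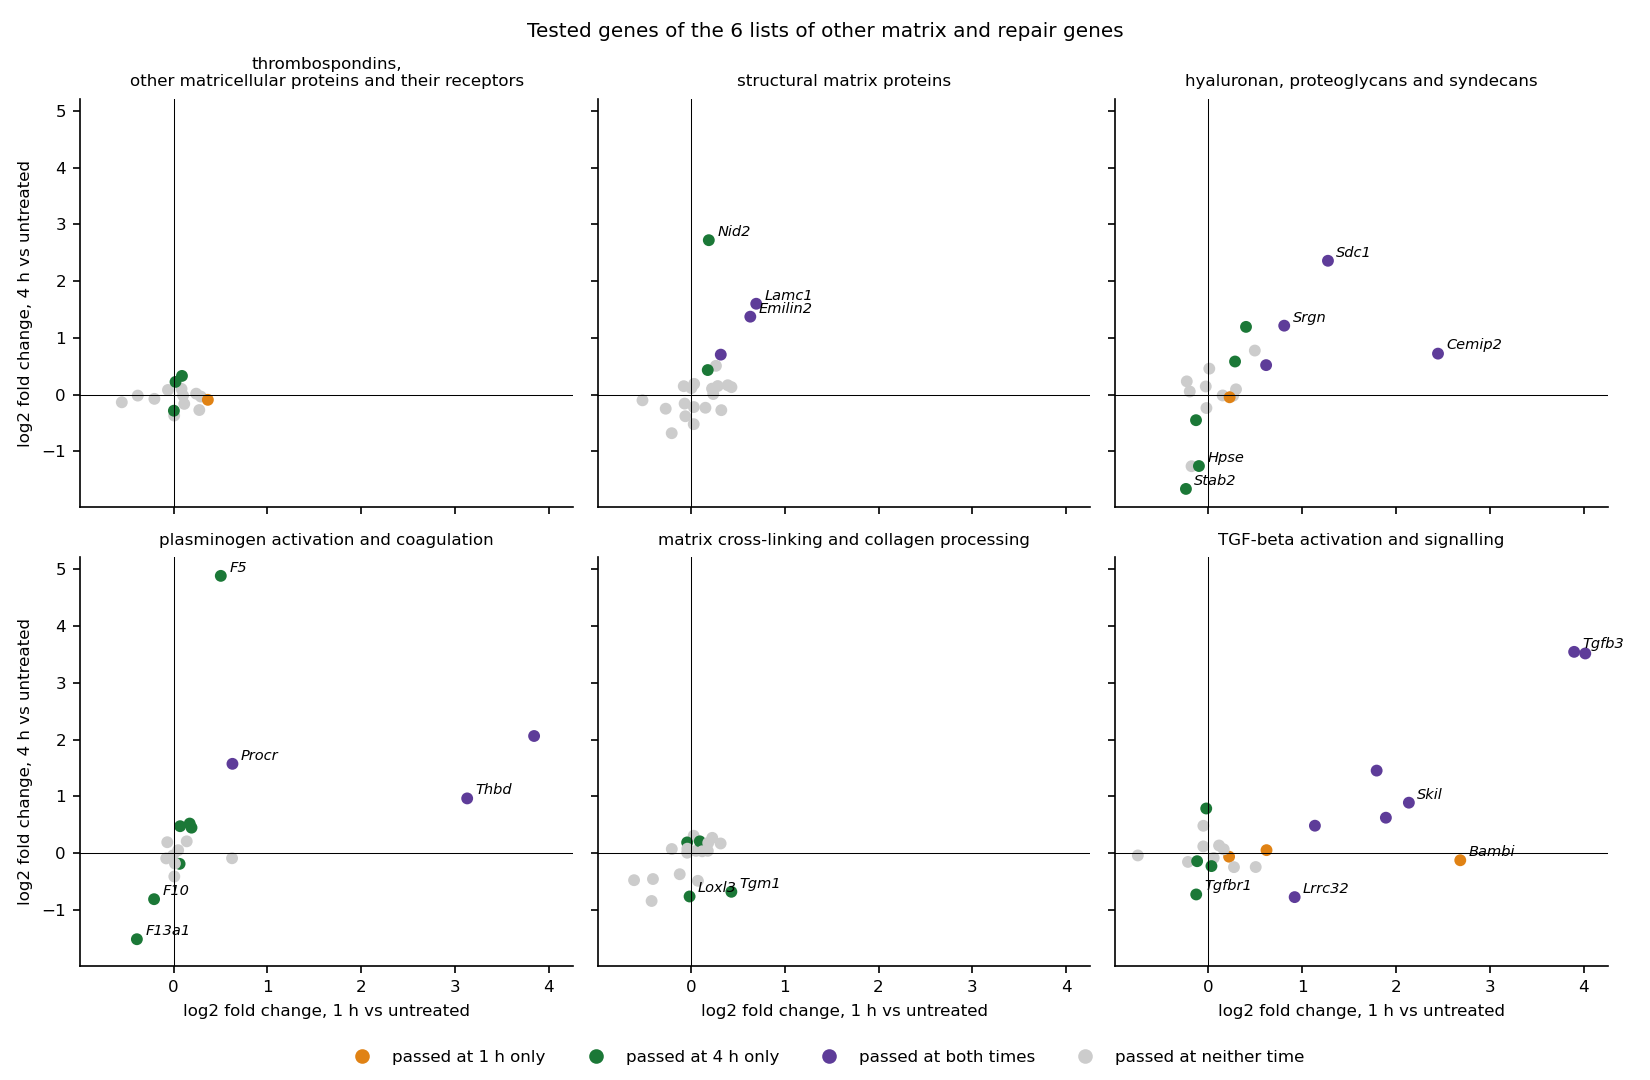
Log2 fold change at 4 h (vertical axis) against 1 h (horizontal axis), both from untreated BMDMs, for the tested genes of the 6 lists, one panel per list, coloured by the time at which the adjusted p was under 0.05. *Lyve1*, with at most 1 count in any untreated library, is not drawn. *Nid2* and *F5* stand near the vertical axis as late genes, *Bambi* near the horizontal axis as an early one, and the thrombospondin and cross-linking lists gather around 0.

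The 5 genes whose log2 CPM over the 12 libraries was most like that of *Thbs1*, out of 10288 genes whose normalized counts averaged 50 or more, were *Cyth1*, *Cytip*, *Pde4d*, *Dgat1* and *Cd14*, with Pearson's r from 0.994 to 0.998. All 5 reached most of their change by 1 h, as *Thbs1* did. The highest, *Cyth1* with its binding partner *Cytip*, are known in leukocyte adhesion, *Pde4d* encodes a cAMP phosphodiesterase, *Dgat1* a triglyceride synthesis enzyme and *Cd14* a coreceptor for LPS. Within the group of 10, *Plaur* had r = 0.959 with *Thbs1*, *Tgm2* 0.958, *Cd44* 0.948, *Tnfaip6* 0.700, *Vcan* 0.641, *Serpinb2* 0.354, *Fn1* 0.0237, *Sdc4* -0.733 and *Plau* -0.824. These values describe a pattern set mainly by the 3 group levels. By rank correlation the 5 most similar genes were all others.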

How the data were processed

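RNA from 12 BMDM cultures (TruSeq Stranded mRNA, single-end reads of 50 bases) was sequenced. The count table deposited by the authors was made by aligning reads to GRCm38 with TopHat2 2.0.11 and counting with HTSeq 0.8.0, per the submitters' processing notes. The strand option and the annotation release of that counting are not given in the sources used here. The study itself analysed the counts with vsn and limma.

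Symbols and exons were taken from GENCODE M21, which matched 53274 of 53379 identifiers. The 105 others kept their identifier, and 0 rows named no gene. Genes were kept by filterByExpr (edgeR 4.0.16, R 4.3.3), counts were scaled by TMM, and the 3 groups were compared in 1 fit of edgeR's quasi-likelihood test, with p-values adjusted by Benjamini-Hochberg over 12386 genes and a threshold of 0.05. This main fit held no term for the mouse, although each mouse gave a library to all 3 groups. Calls are from the main fit unless the block or another fit is named. RPKM used the union of exon bases. The fit was tested on simulated data. Replicates of a group differed by more than counting error (chi-square per degree of freedom of at least 9.29), so none was taken as a repeat of another.

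Groups and mouse numbers came from the labels, and a mouse number marks cells of the same mouse in each group. Deviations from the group mean correlated at 0.290 to 0.561 within a mouse (12 pairs) and at -0.304 to 0.0912 between mice (36 pairs). The alternatives were DESeq2 1.42.0, limma 3.58.1 on voom weights or on log2 CPM, RLE scaling, library size alone, no filter, the mouse as a block, a fit of the compared groups alone, and each library left out. Summary values were computed with SciPy 1.17.1 under Python 3.11.15.

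The 10 genes and all lists were chosen with earlier results of these data known. Beyond the 10 genes and the markers, the text names, per list and time, up to 2 risers and 2 fallers by size among genes past the threshold and averaging 50 or more normalized counts, as well as the 5 genes most like *Thbs1*. The named genes outside that rule, such as *Thbs2*, *Thbs3*, *Thbs4*, *Cd47*, *Lrp1*, *Agrn*, *Col18a1*, *Col1a1*, *Has1* to *Has3*, *Serpine2*, *Plat*, *Plg* and *F3*, were chosen for their role after values were seen. Protein sequences were not used here.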

Additional observations from a re-analysis of the deposited data

Results flagged for a closer look

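In 7 of 108 groups of 4 libraries, 1 library stood apart from the other 3 by Dixon's ratio, the gap to the nearest library over the whole range, and chance gives about 1 in 20 groups, or 5.4 here. The ratio was 0.871 for *Thbs1* at 4 h, where mouse 2 was the highest at 254848 normalized counts. It was 0.892 for *Plaur* at 1 h, where mouse 3 was the lowest at 3607. It was 1 for *Tnfaip6* in untreated BMDMs, from the single count of mouse 1. Among the list genes it was 0.939 for *F10* untreated (mouse 1 high), 0.832 for *Procr* at 4 h (mouse 1 high), 0.872 for *Stim1* at 1 h (mouse 4 high) and 0.901 for *Thbd* untreated (mouse 3 low).

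The effect of fenoterol differed between 1 h and 4 h, by edgeR's test of 4 h against 1 h, for 28 of 33 tested genes. Of these 33, 26 were named for the size of their change at 1 h or 4 h, so the count follows in part from that choice and is no result about them, and 18.7% of all genes were higher and 19.8% lower at 4 h than at 1 h. Of the 7 tested genes of the group these were *Vcan* (log2 fold change 3.84), *Cd44* (0.21), *Plau* (-0.95), *Plaur* (-0.57) and *Sdc4* (-0.33). Higher at 4 h than at 1 h were *F5* (4.38), *Nid2* (2.53), *Sdc1* (1.09), *Procr* (0.94), *Lamc1* (0.91), *Emilin2* (0.74), *Srgn* (0.41), *Calr* (0.24), *Plod3* (0.23) and *Stim1* (0.20). Lower at 4 h than at 1 h were *Bambi* (-2.81), *Thbd* (-2.17), *Cemip2* (-1.73), *Lrrc32* (-1.70), *Stab2* (-1.42), *Skil* (-1.25), *Hpse* (-1.16), *F13a1* (-1.13), *Tgm1* (-1.12), *Loxl3* (-0.75), *Tgfbr1* (-0.60), *Cd36* (-0.46) and *Scarb2* (-0.29). The calls of *Cd44* (without any of 8 libraries, adjusted p = 0.0522 to 0.135), *Calr* (without mouse 2 or 3 at 1 h or mouse 1 at 4 h, adjusted p = 0.0598 to 0.0639), *F13a1* (without mouse 2 at 1 h or mouse 3 at 4 h, adjusted p = 0.0515 and 0.0509) and *Plod3* (without mouse 3 at 1 h, adjusted p = 0.0526) were lost on leaving out those libraries.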

How the results depend on the processing

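For the 7 tested genes of the group, the 26 list genes named by size and *Plat*, no called fold change turned its direction under the alternatives tried. The fold changes of other called genes, such as *Lrp1*, *Kdr* and *Mertk*, were not followed through the alternatives. The count of called genes among the 119 other matrix and repair genes at 1 h was 23, and 35 with the mouse as a block, and the cause was not tested. With each library left out it was 20 to 26 at 1 h, 39 to 44 at 4 h and 39 to 45 between the times, and the count of called genes among the 7 was 2 to 3, 5 and 4 to 5. The block ended none of the calls of the 7 tested genes, the 26 list genes named by size and *Plat*. Between the times, *F10* passed with the block (-0.58, adjusted p = 0.0175) and without mouse 3 at 1 h (adjusted p = 0.0212), and *Tgfb3* with the block (-0.34, adjusted p = 0.00374), DESeq2, limma-voom, no filter and without mouse 4 at 1 h (adjusted p = 0.00374 to 0.0483). Scaling by library size alone moved the split of all genes called, from 1242 higher and 1251 lower to 949 and 1969 at 1 h, and between the times the share of higher calls went from 48.6% to 65.7%, with a shift in the median of all genes of at most 0.0927. The fitted values of *Tnfaip6*, which rest on 1 untreated count, lay between 6.52 and 10.67 at 1 h and between 2.33 and 6.35 at 4 h. Those of *Thbs1* kept within 6.16 to 6.34 at 1 h and 6.87 to 7.05 at 4 h. Of the 5 genes most like *Thbs1*, 0 were kept with Spearman's rho. Depth limits *Serpinb2*, *Tnfaip6* and the untreated level of *Vcan*.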
